A study of Mus musculus with 4 samples.

Results

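The genes described here are 32 transcripts that mark the birth of neurons in the adult brain or the division of cells. They were taken by name from the scanner files of a microarray study of mouse hippocampus, among 37325 genes on the array, and fall into 11 genes of immature neurons and progenitors (Dcx, Sox11, Sox4, Tubb3, Marcksl1, Neurod1, Nes, Sox2, Dpysl3, Draxin and Stmn1) and 21 genes of the cell cycle (Mki67, Top2a, Cdk1, Ccna2, Ccnb1, Pcna, Mcm2 to Mcm7, Bub1, Aurkb, Birc5, Ube2c, Tyms, Rrm2, Cdc20, Plk1 and Kif11). The study compared mice with a heterozygous knockout of Rp58 (hetero-KO; the current symbol is Zbtb18, a zinc finger repressor of transcription) with wild-type (WT) controls. There were 4 groups, WT and hetero-KO at 4 months and WT and hetero-KO at 18 months. Titles of the older samples give 1.5 years and their descriptions a range that starts at 12 months. Each group was 1 array, hybridised with Cy3-labelled material from 200 ng of RNA mixed from 3 samples, so no group had a replicate array. Which part of Rp58 was removed, the strain and the sex of the mice are not given in the sources used here.

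In the adult hippocampus new granule cells arise in the subgranular zone of the dentate gyrus. Radial glia-like stem cells, which carry Nes and Sox2, give rise to dividing intermediate progenitors and then to neuroblasts, which switch on Sox4, Sox11, Neurod1 and the microtubule protein doublecortin (Dcx) before they mature. The output of this lineage is known to decline with age in mice. Dividing cells transcribe their cell cycle genes in waves, with DNA replication genes in S phase and spindle, cyclin and chromosome genes in G2 phase and mitosis. In whole tissue, fewer cells of a type and less RNA per cell cannot be told apart.

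Levels are given as the signal of a gene's brightest probe divided by the 75th percentile of the signal on the same array. Where 2 levels are given for an age, WT comes first and hetero-KO second. That percentile was 1975, 2111, 1734 and 1714 in WT and hetero-KO at 4 months and WT and hetero-KO at 18 months, and 77.9% to 81.9% of spots were well above background. Of the 32 genes, 29 were well above background on all 4 arrays, 10 of the 11 immature neuron and progenitor genes and 19 of the 21 cell cycle genes. All 14 listed markers of mature granule cells and all 12 of pyramidal cells and hippocampal identity were measured on every array. The targeted gene, Zbtb18, had levels of 17.5, 15.2, 18.9 and 21.4 in the same order of arrays. Its probe may lie outside the removed part and then checks nothing about the labels. Sex-linked transcripts differed between the pools. The Y-linked Ddx3y, Eif2s3y and Uty were not well above background on the young hetero-KO array and measured on the other 3, while Xist, the transcript of the inactive X chromosome, had levels of 0.164 and 0.231 at 4 months but was not well above background at 18 months. Age and the sex makeup of the pools cannot be told apart in any age comparison below, nor can genotype and sex makeup at 4 months.

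The immature neuron and progenitor genes were lower at 18 than at 4 months, by modest amounts. Of the 10 measured on every array, 9 were lower in WT and 9 in hetero-KO, with median log2 differences of −0.20 and −0.25 against 0.04 and 0.04 over all genes. In 6 of the 10 (Dcx, Sox11, Sox4, Nes, Sox2 and Dpysl3) both 18-month arrays lay below both 4-month arrays, a pattern that 18% of all genes measured on every array had. None of the 10 passed the test of age over both genotypes (limma, Benjamini-Hochberg adjusted p under 0.05), where 0.643% of all genes tested fell (187) and 1.46% rose (425). With quantile normalization, 116 genes fell and 51 rose. At an unadjusted p under 0.05, 7 of the 10 were lower, against 6.92% of all genes, and none was higher, against 16.8% of all genes. This limma fit has 1 residual degree of freedom and counts a genotype effect that differs between the ages as noise, so its p-values speak of 4 pooled arrays and not of single mice.

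Dcx, which stabilises microtubules in migrating neuroblasts, had the largest age difference of this group. At 4 months the WT array read 0.283 and the hetero-KO array 0.334, and at 18 months they read 0.204 and 0.186. Both older arrays were below both younger ones, by 1.39-fold in WT and 1.80-fold in hetero-KO. The limma estimate was −0.66 ± 0.11 (SE) on the log2 scale, with an adjusted p of 0.0629. With the normexp background the same estimate was −0.56 with an adjusted p of 0.0461, and over all 8 settings tried the adjusted p ran from 0.0461 to 0.319. The gene is X-linked, and its probe lies on the X chromosome at 140290854 to 140290913 (mm9).

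The array holds 4 probes for Dcx, all measured on every array. Of these, 3 were lower at 18 months, with mean log2 differences down to −0.66, and the other was higher by 0.11. That last probe had levels of 0.0166, 0.0176, 0.0221 and 0.0153. The mean of the 4 probes gave −0.40.

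The SoxC transcription factors Sox11 and Sox4, which drive the early neuronal programme, were both lowest in hetero-KO at 18 months. For Sox11 the levels were 0.536 and 0.657 at 4 months against 0.470 and 0.434 at 18 months, in WT and hetero-KO respectively. All 3 Sox11 probes had age differences between −0.42 and −0.39. For Sox4 they were 1.40 and 1.38 at 4 months against 1.21 and 1.14 at 18 months, again with the ages apart. The adjusted p of the age difference was 0.136 for Sox11 and 0.096 for Sox4 (limma). Neurod1, a basic helix-loop-helix factor needed for granule cell survival, was the exception, with 1.58 and 1.38 at 4 months against 1.60 and 1.46 at 18 months. Its groups overlapped between the ages, and both hetero-KO arrays lay below both WT arrays.

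The stem and progenitor genes Nes and Sox2 differed less over both genotypes (limma age estimates of −0.17 each) than Sox11 (−0.39) and Sox4 (−0.24). Nes encodes an intermediate filament of neural stem cells, and had levels of 0.645 and 0.591 at 4 months against 0.558 and 0.543 at 18 months. Sox2, a factor that keeps stem cells undifferentiated and is also expressed in astrocytes, had 1.74 and 1.60 at 4 months against 1.60 and 1.37 at 18 months. The ages did not overlap in either gene, but the log2 differences with age, −0.21 in WT and −0.12 in hetero-KO for Nes and −0.12 and −0.23 for Sox2, were near the error of 0.20 that the scanner software gives for a difference between 2 spots. In WT, Sox4 (−0.20) and Sox11 (−0.19) were near that error too. Of the 10 measured genes of this group, 4 in WT and 6 in hetero-KO were lower with age by more than it.

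The remaining genes of this group, apart from Draxin, act on the cytoskeleton of growing neurites. Dpysl3, a collapsin response mediator protein, had levels of 3.75 and 4.62 at 4 months against 3.22 and 3.29 at 18 months, and all 3 of its probes were lower with age, by −0.57 to −0.35. Marcksl1, which binds actin at the membrane, had 2.04 and 1.61 at 4 months against 1.71 and 1.15 at 18 months, so that the ages overlapped while both genotypes had less at 18 months. Tubb3, the neuronal beta-tubulin, had 5.73 and 6.82 at 4 months against 5.22 and 5.99 at 18 months. In Tubb3 and Marcksl1 the genotype difference was as large as the age difference or larger. Stmn1, a microtubule destabiliser that mature neurons also hold, stayed within 34.2 to 37.8 on all arrays. Draxin, an axon guidance ligand, was not well above background on any array, so nothing can be said of its change.

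**Figure D1:**
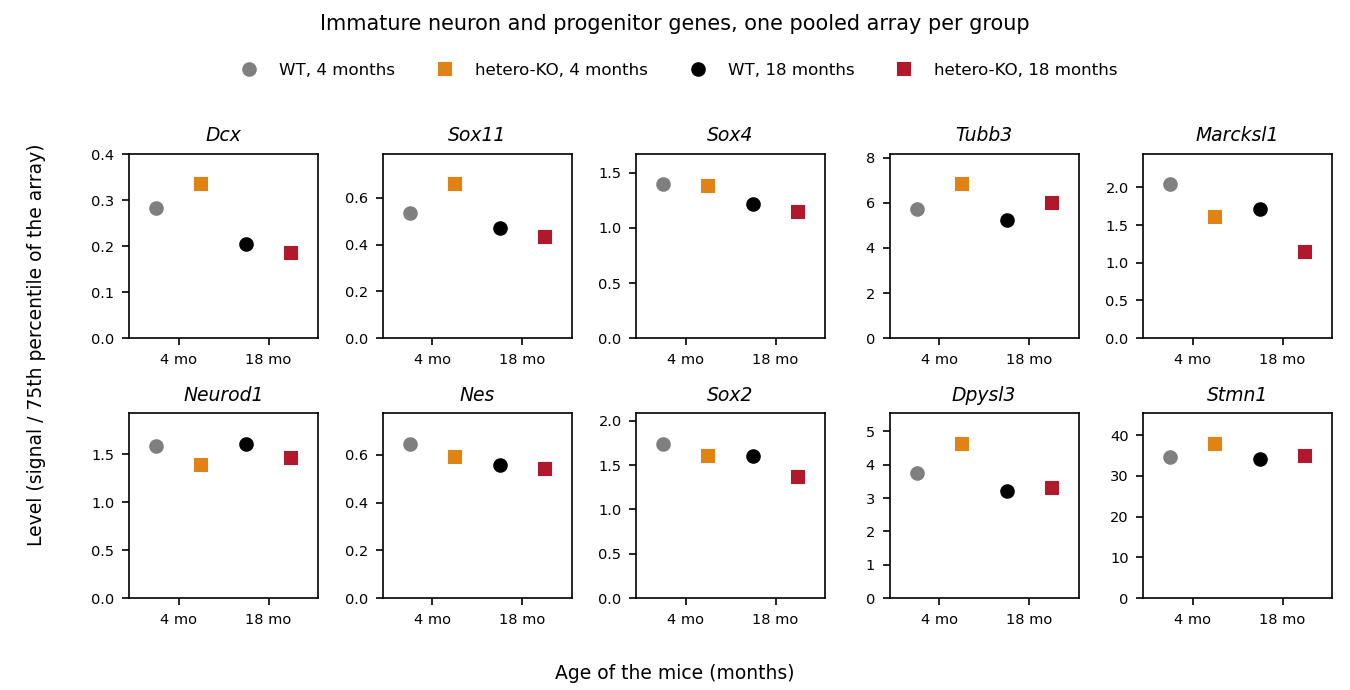
Level of the 10 immature neuron and progenitor genes measured on every array (signal over the array's 75th percentile, one linear axis from 0 for each gene); each point is 1 array of pooled RNA, circles WT and squares hetero-KO, with no error bar because no group had a replicate. The 18-month points of Dcx lie at 0.204 and 0.186, below the 4-month points at 0.283 and 0.334, while Neurod1 and Stmn1 overlap between the ages.

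Most cell cycle genes read lower at 18 months, and those that passed the test were Top2a, which fell 2.87-fold, and Mki67, which fell 1.60-fold. The Mcm genes, whose products unwind DNA at replication origins, read level or slightly higher, apart from Mcm4 in WT (−0.19). This holds for the scanner files and not for the authors' deposited table, described below. Of the 19 cell cycle genes measured on every array, 13 were lower with age in WT and 14 in hetero-KO, with medians of −0.12 and −0.25. In 10 of the 19 both 18-month arrays lay below both 4-month arrays (18% of all genes), and in 2, Mcm2 and Mcm5, both lay above (32.4% of all genes). Top2a and Mki67 were the members past the threshold among the 20 tested (limma, adjusted p 0.0388 and 0.0497). A further 6 were lower at an unadjusted p under 0.05 (Cdk1, Ccna2, Ccnb1, Ube2c, Rrm2 and Cdc20) and 1, Mcm6, was higher, where 6.92% of all genes were lower and 16.8% higher at that p. The lean of the 19 toward lower levels depended on processing, most of all in WT. There the normexp background gave a median of −0.01 with 9 of 19 higher with age, against 6 above. In hetero-KO it gave −0.20 with 6 higher, against 5. Averaging probes put both medians at −0.12, with 8 higher in WT and 6 in hetero-KO. Quantile normalization left the counts at 6 and 5.

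The upstream windows of 5 of these genes are shown. They were picked because, in the scanner files, 4 of the genes were lower together at 18 months and the other, Mcm6, was not. Each window holds the 250 bases before the transcription start from RefSeq (GRCm38.p6), in the direction of transcription, for Top2a at chr11:99024190-99024439 (reverse strand), Mki67 at chr7:135716380-135716629 (reverse strand), Cdk1 at chr10:69352913-69353162 (reverse strand), Ube2c at chr2:164769679-164769928 (forward strand) and Mcm6 at chr1:128359706-128359955 (reverse strand). Capitals mark the core of the cell cycle genes homology region TTTGAA, which the DREAM and MuvB complexes bind in genes of late phases, the CCAAT box bound by NF-Y, and the E2F sites TTTCCCGC and TTTGGCGC, each on either strand.
Top2a: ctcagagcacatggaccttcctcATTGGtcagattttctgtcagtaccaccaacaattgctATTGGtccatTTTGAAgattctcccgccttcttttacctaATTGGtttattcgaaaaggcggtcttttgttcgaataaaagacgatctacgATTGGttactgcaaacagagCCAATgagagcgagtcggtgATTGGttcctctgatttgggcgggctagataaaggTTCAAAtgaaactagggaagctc
Mki67: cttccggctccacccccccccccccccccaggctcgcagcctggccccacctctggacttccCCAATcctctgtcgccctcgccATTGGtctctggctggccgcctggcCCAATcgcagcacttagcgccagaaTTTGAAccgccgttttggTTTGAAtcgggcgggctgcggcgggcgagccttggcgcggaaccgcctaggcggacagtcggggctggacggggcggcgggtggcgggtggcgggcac
Cdk1: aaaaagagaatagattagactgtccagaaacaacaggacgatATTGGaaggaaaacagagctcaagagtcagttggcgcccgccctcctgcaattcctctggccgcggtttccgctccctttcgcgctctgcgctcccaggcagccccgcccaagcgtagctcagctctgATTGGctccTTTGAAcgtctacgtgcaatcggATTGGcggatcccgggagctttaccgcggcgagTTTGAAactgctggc
Ube2c: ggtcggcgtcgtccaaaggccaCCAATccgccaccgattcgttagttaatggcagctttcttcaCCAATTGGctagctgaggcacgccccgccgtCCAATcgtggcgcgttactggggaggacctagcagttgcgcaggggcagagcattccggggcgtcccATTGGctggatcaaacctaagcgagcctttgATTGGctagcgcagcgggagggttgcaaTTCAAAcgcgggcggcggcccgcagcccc
Mcm6: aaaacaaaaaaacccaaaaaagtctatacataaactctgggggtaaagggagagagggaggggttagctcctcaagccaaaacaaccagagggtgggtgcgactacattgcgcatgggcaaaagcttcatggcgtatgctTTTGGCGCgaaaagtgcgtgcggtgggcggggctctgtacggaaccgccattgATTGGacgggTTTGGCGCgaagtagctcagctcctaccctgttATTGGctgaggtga

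RefSeq windows were at hand for 27 of the 32 genes (29 windows; none for Dpysl3, Stmn1, Ccna2, Mcm4 and Aurkb). TTTGAA lay in 7 of the 19 cell cycle windows (those of Mki67, Top2a, Cdk1, Mcm2, Ube2c, Cdc20 and Kif11) and in 1 of the 10 windows of immature neuron and progenitor genes (Sox11), against 16% of the 32851 windows of all genes. CCAAT lay in 17 of the 19 and 6 of the 10, against 33.8%, and in the Ube2c window a CCAAT of each strand overlap. An E2F site lay in 3 of the 19, those of Mcm5, Mcm6 and Mcm7, and in none of the 10, against 1.3% of all windows. The E-box CATCTG, to which the protein made from Zbtb18 is known to bind, lay in the Birc5 window and no other member's, against 14.4% of all windows. Of the 6 cell cycle genes with TTTGAA that were measured on every array, 5 were lower with age in both genotypes, all but Mcm2, with a median limma age difference of −0.57. Of the 10 without it, 5 were lower in both genotypes, with a median of −0.06. The 10 include Mcm3, Mcm5, Mcm6 and Mcm7, and also Ccnb1 (−0.74) and Rrm2 (−0.49), which were lower in both genotypes. The split rests on the same age values that guided the choice of printed windows, and it was not tested. A match to these letters is a description of the window and shows no binding.

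Top2a unknots DNA when chromosomes condense and is made from late S phase to mitosis. At 4 months its level was 0.0531 (WT) and 0.0753 (hetero-KO), and at 18 months 0.0187 and 0.0260. Both older arrays lay far below both younger ones, by 2.85-fold in WT and 2.89-fold in hetero-KO, and the limma estimate was −1.52 ± 0.15 (SE) with an adjusted p of 0.0388. With the normexp background the estimate shrank to −0.64, with an adjusted p of 0.0347, and with the mean of its probes it was −1.71, with an adjusted p of 0.119. Its probe lies on chromosome 11 at 98854651 to 98854710 (mm9). The other 3 Top2a probes were not well above background on either 18-month array.

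Mki67, the antigen used to stain cycling cells, coats mitotic chromosomes. Its levels were 0.140 and 0.169 at 4 months against 0.0867 and 0.107 at 18 months, so the ages did not overlap. It fell by 0.67 on the log2 scale, with an SE of 0.09 and an adjusted p of 0.0497 in limma, at the edge of the threshold. The 8 settings tried put that adjusted p between 0.0418 and 0.319, under 0.05 in 3 of them, and the estimate was −0.46 with the normexp background. For Top2a it was under 0.05 in 4 of the 8. The Top2a and Mki67 windows printed above each hold 2 matches to TTTGAA.

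The kinase and cyclins of mitotic entry were lower as well without passing the test. Ccnb1, the cyclin B that activates Cdk1, had levels of 0.0394 and 0.0405 at 4 months against 0.0237 and 0.0241 at 18 months. Ccna2, the cyclin of S and G2 phase, had 0.117 and 0.133 at 4 months against 0.0825 and 0.0818 at 18 months, and both of its probes were lower. By the brightest probe of each of these genes, the WT and hetero-KO arrays of an age were close and the ages apart. Another Ccnb1 probe was well above background only in hetero-KO, with 0.00917 at 4 months and 0.0147 at 18 months, so higher with age. The remaining Ccnb1 probes were not well above background on any array. Cdk1 was at 0.0139 and 0.0155 at 4 months and 0.00871 in WT at 18 months, and not well above background on the older hetero-KO array, where its level was at least 1.82-fold below that of the younger one. The limma age difference was −0.74 for Ccnb1 (adjusted p = 0.0855), −0.61 for Ccna2 (adjusted p = 0.0648) and −0.77 for Cdk1 (adjusted p = 0.181).

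Ube2c and Cdc20 work with the anaphase-promoting complex, which degrades cyclin B at the end of mitosis. Ube2c had levels of 0.0569 and 0.0483 at 4 months against 0.0278 and 0.0300 at 18 months. It was 2.04-fold lower with age in WT and 1.61-fold in hetero-KO, and with Top2a it makes the 2 members at least 2-fold lower in WT (0.824% of all genes measured on both arrays), while Top2a alone was so in hetero-KO (1.1%). No member was 2-fold higher with age in either genotype (0.771% and 1.1%). Cdc20 had 0.137 and 0.150 at 4 months against 0.111 and 0.124 at 18 months by its brightest probe, but its second probe was 0.03 higher with age on the log2 scale.

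Genes of the spindle and chromosome segregation were more mixed. Kif11, the kinesin that pushes spindle poles apart, had levels of 0.0183 and 0.0178 at 4 months against 0.0112 and 0.0153 at 18 months. Aurkb, the kinase of the chromosomal passenger complex, had 0.0145 and 0.0208 at 4 months against 0.0134 and 0.0116 at 18 months. Both were dim, and the ages were apart only narrowly. Plk1, a kinase of centrosomes and kinetochores, moved little, from 0.284 and 0.296 at 4 months to 0.262 and 0.264 at 18 months. Birc5, the passenger complex subunit survivin, had 0.191 and 0.254 at 4 months against 0.194 and 0.202 at 18 months, where the hetero-KO array at 4 months alone stood apart. Both of its probes were higher with age in WT (0.03 and 0.62) and lower in hetero-KO (−0.33 and −0.27). Their means over both genotypes had opposite directions, −0.15 for the brightest probe and 0.18 for the second. Bub1, a spindle checkpoint kinase, was not well above background on any array.

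Among the genes that make DNA and its building blocks, Rrm2 had the largest age difference. This subunit of ribonucleotide reductase, made in S phase, had levels of 0.166 and 0.210 at 4 months against 0.122 and 0.143 at 18 months, with a limma age difference of −0.49 (adjusted p = 0.0656). Tyms, the thymidylate synthase, had 0.306 and 0.332 at 4 months against 0.327 and 0.280 at 18 months, and its 3 probes did not share a direction. Pcna, the sliding clamp of DNA polymerase, was between 4.85 and 5.22 on all arrays.

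The Mcm genes encode the subunits of the replicative helicase, and none was lower on both 18-month arrays than on both 4-month arrays. Mcm2 had levels of 0.132 and 0.130 at 4 months against 0.150 and 0.148 at 18 months, and Mcm5 had 0.251 and 0.258 at 4 months against 0.286 and 0.262 at 18 months. In these genes both older arrays were higher. Mcm3 had 0.438 and 0.460 at 4 months against 0.453 and 0.532 at 18 months, Mcm4 1.38 and 1.41 and then 1.21 and 1.45, and Mcm7 1.11 and 1.03 at both ages. Mcm6 had 2.79 and 2.33 at 4 months against 3.14 and 2.54 at 18 months, where each genotype was higher with age but the ages overlapped. The 6 Mcm genes had median age differences of 0.11 in WT and 0.08 in hetero-KO, while the 13 other cell cycle genes measured on every array had −0.44 and −0.55, a split described with the values known and not tested. None of the Mcm genes passed the age test.

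**Figure D2:**
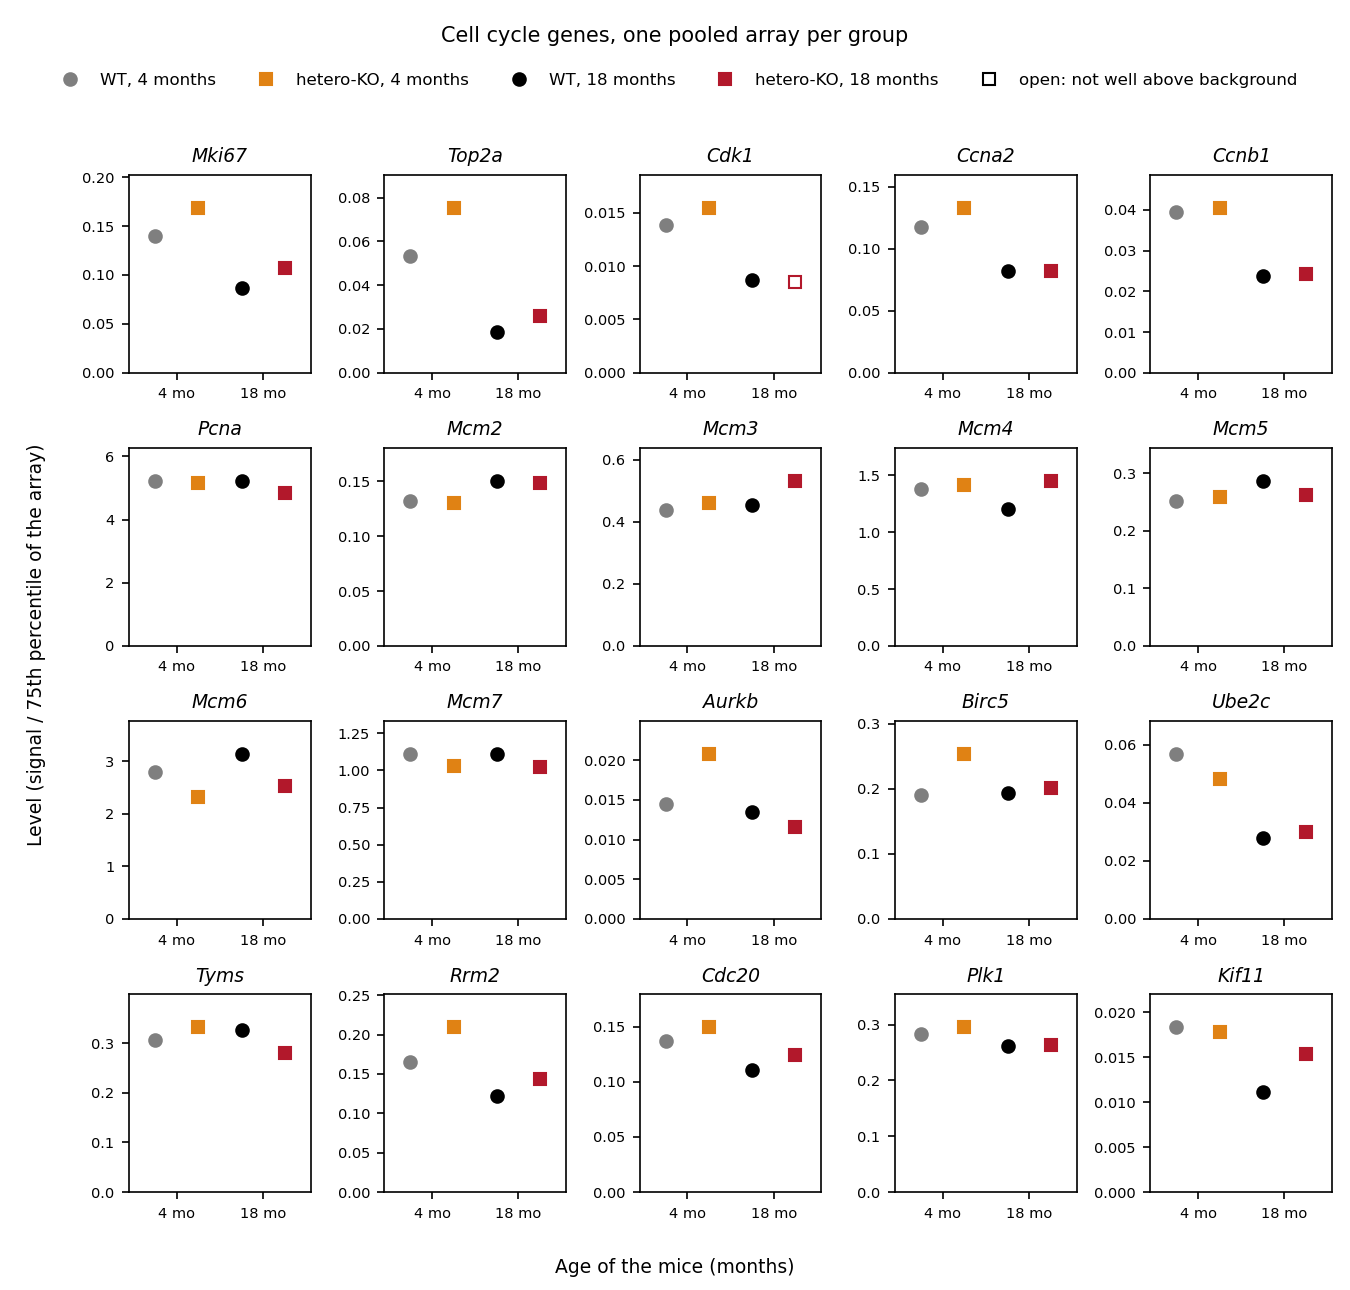
Level of the 20 cell cycle genes measured on at least 1 array (signal over the array's 75th percentile, one linear axis from 0 for each gene); each point is 1 pooled array, circles WT and squares hetero-KO, an open symbol is not well above background, and there are no error bars because no group had a replicate. Top2a drops from 0.0531 and 0.0753 at 4 months to 0.0187 and 0.0260 at 18 months, whereas Mcm7 stays at 1.11 and 1.03.

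Between the genotypes, no member was 2-fold apart at either age by its brightest probe. Of all genes, the shares 2-fold or more above and below WT were 0.69% and 0.634% at 4 months and 0.525% and 0.612% at 18 months. The immature neuron and progenitor genes had a median log2 difference (hetero-KO minus WT) of 0.05 at 4 months, with 5 higher and 5 lower, and −0.10 at 18 months, with 3 higher and 7 lower. For the cell cycle genes the medians were 0.06, with 13 of 19 higher, and 0.02, with 11 of 19 higher. The medians of all genes were −0.02 and −0.01. No member passed the limma genotype test, where 3 genes in all rose (0.0103% of those tested) and none fell (0%). At an unadjusted p under 0.05, 1498 genes (5.15%) were higher and 1834 (6.31%) lower, among them 4 members higher (Tubb3, Mki67, Top2a and Rrm2) and 4 lower (Marcksl1, Neurod1, Sox2 and Mcm6).

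Marcksl1 and Mcm6 had the lowest genotype differences. Marcksl1 was 1.27-fold lower in hetero-KO at 4 months and 1.49-fold lower at 18 months, a limma estimate of −0.46 ± 0.07 (SE) with an adjusted p of 0.218, and all 3 of its probes were lower. Mcm6 was 1.20-fold lower at 4 months and 1.24-fold lower at 18 months, an estimate of −0.29 ± 0.05 with an adjusted p of 0.224, and both of its probes were lower. Their probes lie on chromosome 4 at 129192947 to 129193006 and on chromosome 1 at 130228178 to 130228237 (mm9). Neurod1 and Sox2, with limma estimates of −0.16 and −0.17, were lower by less than the spot error at each age, apart from Sox2 at 18 months (−0.22).

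Top2a, Mki67, Rrm2 and Tubb3 read above WT in both hetero-KO pools. Top2a was 1.42-fold higher at 4 months and 1.39-fold at 18 months, with an adjusted p of 0.381 in limma. Mki67 was 1.20-fold and 1.23-fold higher, and Rrm2 1.27-fold and 1.17-fold. Top2a, Mki67 and Rrm2 were also lower with age, so that the hetero-KO array was above the WT array of its age while both genotypes had less at 18 months. Not every gene lower with age was above WT at both ages. On the log2 scale Cdc20 was (0.13 and 0.16), while Ube2c (−0.24 and 0.11) and Ccna2 (0.18 and −0.01) were not. Tubb3 was 1.19-fold higher at 4 months and 1.15-fold at 18 months (limma estimate 0.22 ± 0.04, adjusted p = 0.26). In all, 3 immature neuron and progenitor genes and 9 cell cycle genes were higher at both ages, where 27% of all genes were, and 5 and 4 were lower at both, where 34.9% were.

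Several members differed from WT in opposite directions at the 2 ages. Dcx was 0.24 higher in hetero-KO at 4 months and 0.13 lower at 18 months on the log2 scale, and Sox11 0.30 higher and 0.12 lower. Ccna2, Mcm5, Aurkb and Tyms also were higher at 4 and lower at 18 months, a pattern in 17.3% of all genes, and Ube2c and Kif11 went the other way. The largest of these, Aurkb, had differences of 0.52 and −0.21 in a gene near background. With 1 array in each group, a difference between the ages has no residual degree of freedom and was not tested.

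**Figure D3:**
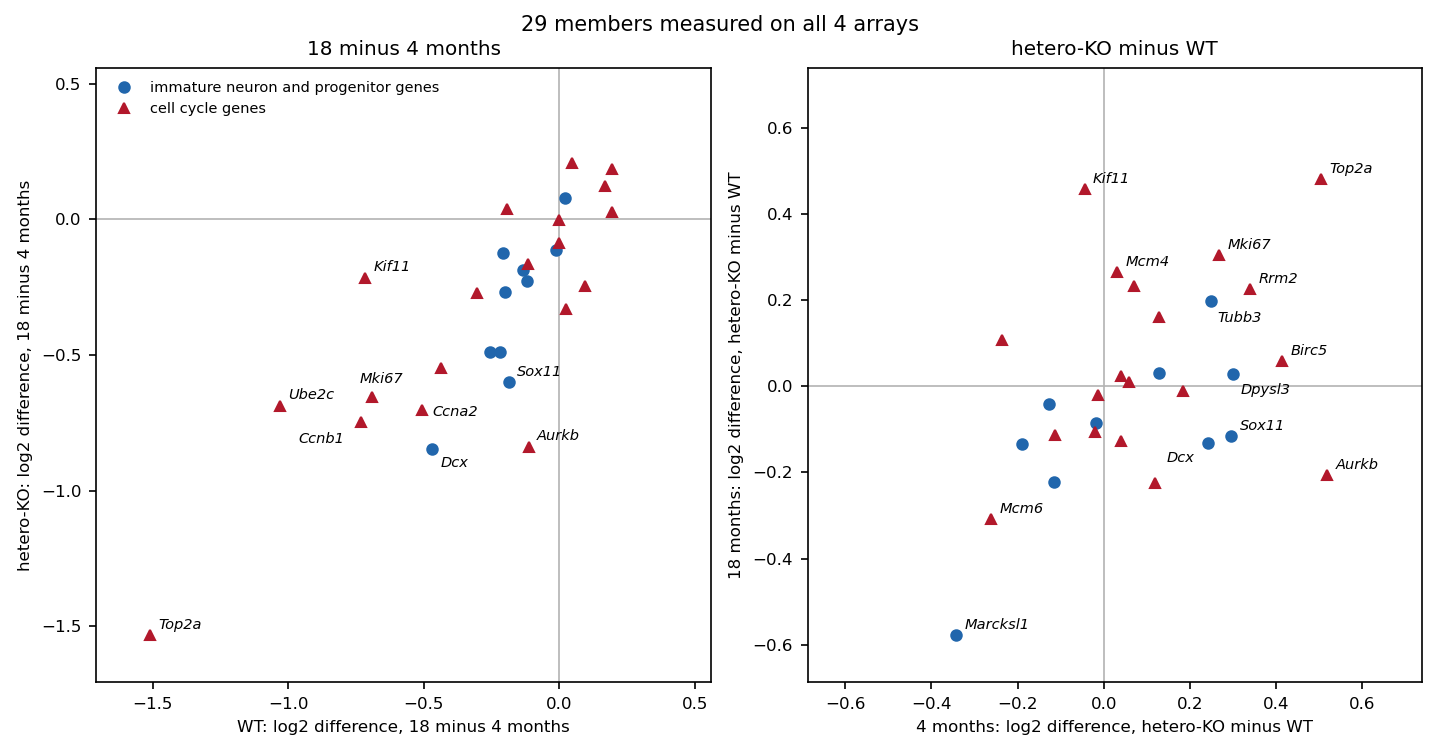
Log2 differences of the 29 members measured on all 4 arrays; left, 18 minus 4 months in WT (x) against hetero-KO (y), right, hetero-KO minus WT at 4 months (x) against 18 months (y); circles are immature neuron and progenitor genes and triangles cell cycle genes, and each point rests on 4 arrays without replicates. Top2a lies at −1.51 and −1.53 on the left and at 0.50 and 0.48 on the right, and Marcksl1 is the lowest point on the right at −0.34 and −0.58.

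Where a gene has several probes, they can be compared as repeated readings of 1 RNA pool. Of 62 probes for the 32 genes, 51 were measured on every array, and 13 genes had at least 2 such probes. In 7 of these 13 (Sox11, Sox4, Marcksl1, Dpysl3, Stmn1, Ccna2 and Mcm6) all probes had the same direction with age. In 10 of the 13 all had the same direction between the genotypes, the exceptions being Dcx, Cdc20 and Tyms. Dcx spanned from −0.66 to 0.11 with age, and Mcm7 from 0.00 to 0.36.

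**Figure D4:**
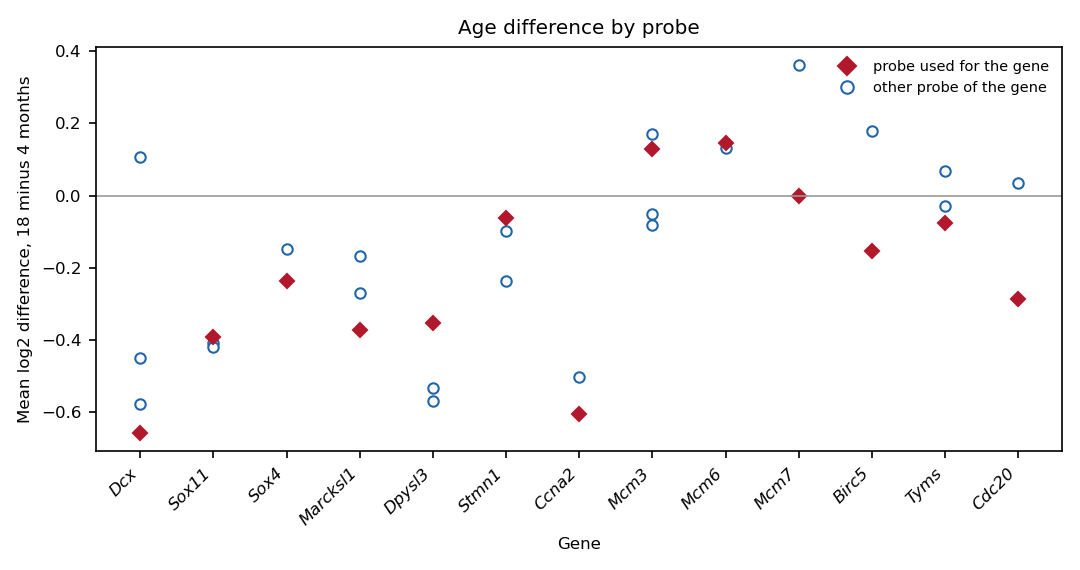
Mean log2 difference of 18 minus 4 months over both genotypes for each probe of the 13 genes with at least 2 probes measured on all 4 arrays; the diamond is the brightest probe, used for the gene, and open circles are its other probes, each from 4 arrays with no error bar. The 3 Sox11 probes lie between −0.42 and −0.39, while the probes of Dcx, Mcm3, Mcm7, Birc5, Tyms and Cdc20 lie on both sides of 0.

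Other genes listed under the same processes, none of them among the 32, were read in the same manner. Of all 27380 genes measured on every array, 11419 were lower with age in WT and 11138 in hetero-KO. In limma, 0.643% of all genes tested fell with age and 1.46% rose, beside which this and the later lists are read. In a list of 70 genes of G2 phase and mitosis, 57 were measured on every array. Of these, 42 were lower with age in WT and 36 in hetero-KO, with medians of −0.09 and −0.12. Of the 64 tested, 2 fell (limma), Cit, a kinase of the cleavage furrow (−1.12, adjusted p = 0.0134), and Prc1, a protein of the central spindle (−0.82, adjusted p = 0.0497), and none rose. Cit had levels of 4.21 and 4.12 at 4 months against 2.02 and 1.81 at 18 months. For Prc1 they were 0.0934 and 0.112 and then 0.0551 and 0.0611. The level of Cit was far above that of Mki67 (0.140 and 0.169 at 4 months), and which cells of the tissue hold Cit was not tested. The largest difference upward in this list was Anln at 0.49 (adjusted p = 0.0799). Cdca3 had the highest genotype difference and Cdc25c the lowest. In 44 genes of DNA replication and S phase the medians with age were 0.01 and −0.02, none passed in either direction, and the range ran from Tk1 at −0.55 to Chaf1a at 0.30. Its genotype differences were highest in Tk1 and lowest in Clspn.

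Of 26 cyclins, kinases and inhibitors of G1 phase, 25 were tested and 2 passed with age. Btg2, an antiproliferative gene of progenitors, fell from 0.620 and 0.663 at 4 months to 0.439 and 0.446 at 18 months (adjusted p = 0.0464). Cdkn2a, whose product p16 marks senescent cells and which is named after its values were seen, rose (adjusted p = 0.0342), with 0.0445 and 0.0387 at 18 months. It was not well above background at 4 months, so it entered the test only through the group where it was high. Cdkn2b had the largest upward estimate of those measured on every array, 0.41 (adjusted p = 0.109). Between the genotypes Cdkn1a, with differences of 0.27 and 0.61, and Cdkn1c, with −0.43 and −0.99, were the highest and lowest, and none of the list passed.

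Lists of earlier stages of the lineage were read the same way. Among 17 genes of stem and radial glia-like cells measured on every array, the medians were 0.08 and 0.04, and Aldoc, a glycolytic enzyme of astrocytes and stem cells, was the 1 that passed (rose, adjusted p = 0.0479). Fabp7, a fatty acid binding protein of radial glia, had 3.49 and 3.44 at 4 months against 2.73 and 2.29 at 18 months (adjusted p = 0.0539). Vim had the largest age difference upward (0.70, adjusted p = 0.107), and Hes5 and Prom1 the lowest and highest genotype differences. Of 24 intermediate progenitor and neuroblast genes tested none passed for age. Their medians were 0.01 in WT, −0.06 in hetero-KO and −0.19 over both genotypes, with 13 of the 23 measured on every array lower over both, and in 9 of the 23 both 18-month arrays lay below both 4-month arrays (18% of all genes). Within it, Neurog2 was higher in hetero-KO at both ages, with 0.0455 and 0.133 at 4 months against 0.0422 and 0.0983 at 18 months (adjusted p = 0.138 for genotype), Igfbpl1 was 0.109, 0.117 and 0.175 on the first 3 arrays and 0.0264 in hetero-KO at 18 months, Tac2 had the lowest age estimate (−1.03) and Neurod2 the highest (0.30). Eomes, a factor of intermediate progenitors named after its values were seen, was at 0.0214 and 0.0227 at 4 months, 0.143 in WT at 18 months and not well above background on the older hetero-KO array.

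The markers of mature granule cells, the cells this lineage produces, were lower in hetero-KO. At 4 months 13 of 14 were lower and at 18 months 12 of 14, with medians of −0.26 and −0.27. Over all genes, 15247 and 14283 of 27380 were lower. None of the 14 markers passed the genotype test, and 8 were lower at an unadjusted p under 0.05 (limma), against 6.31% of all genes. Dsp had the lowest difference (−0.84 and −0.70) and Trpc6 the highest (−0.05 and 0.10). With age 1 of the 14 rose, Lct, with 6.05 and 4.14 at 4 months against 8.50 and 6.81 at 18 months (adjusted p = 0.0442), and Pdzd2 had the lowest estimate at −0.07. Of 45 niche signals, 44 were tested and 2 rose with age, Dkk3 (adjusted p = 0.0394) and Fgfr1 (adjusted p = 0.0442), with Shh lowest at −0.75 (adjusted p = 0.0517) and Fgf2 highest at 0.51. Hes1, the Notch effector, had the highest genotype difference in that list (0.98 and 1.07) and Sfrp1 the lowest (−0.31 and −0.76).

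**Figure D5:**
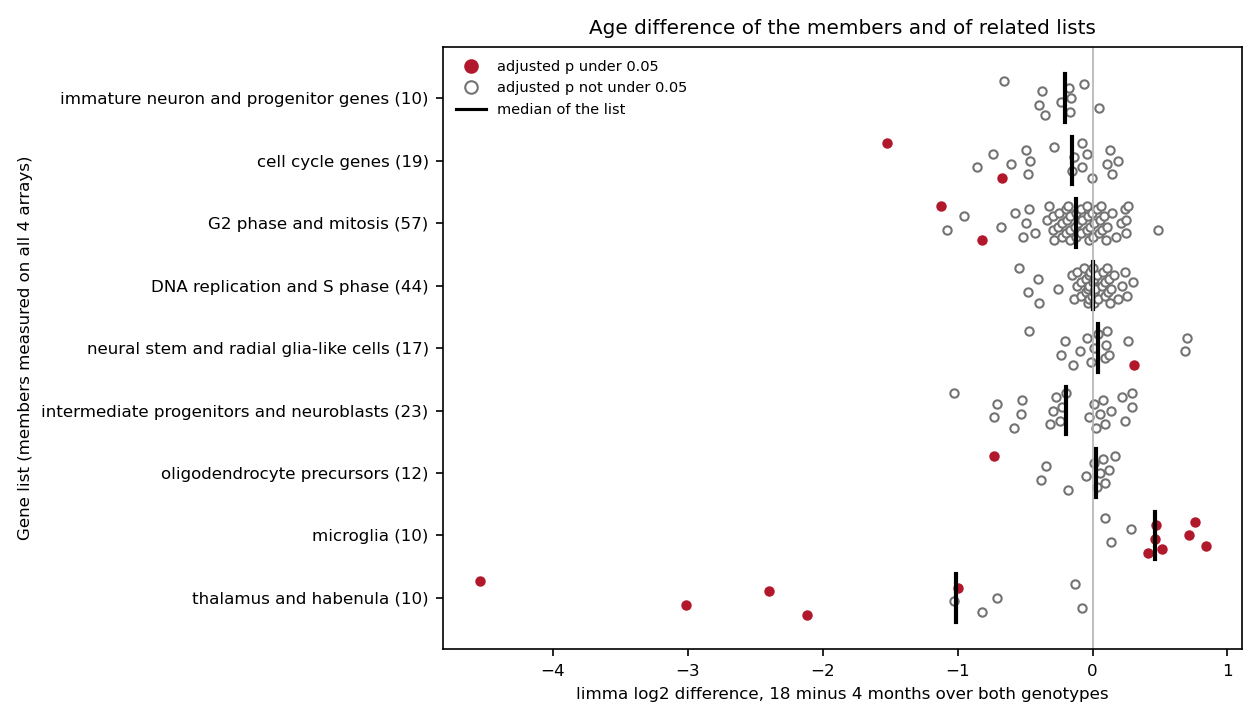
Limma log2 difference of 18 minus 4 months over both genotypes for each gene measured on all 4 arrays, in the members' own lists and 7 related lists (number of genes in brackets); filled points have an adjusted p under 0.05 and the vertical bar is the median of the list. Mki67 and Top2a are the filled points of the cell cycle genes, and Cit and Prc1 those of the G2 phase and mitosis list. The microglia points all lie above 0.

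Markers of other dividing or neighbouring cells moved with age too, and their part in the differences above was not tested. Of 12 oligodendrocyte precursor genes, all tested, Gpr17, a receptor of committed precursors, fell from 6.06 and 6.34 at 4 months to 3.92 and 3.55 at 18 months (adjusted p = 0.0347); the others did not pass, from Lhfpl3 at −0.38 to Sox10 at 0.17, and the summed level of the list was 21.5, 21.3, 20.5 and 19.0 in the order of arrays used above. Lhfpl3 and Tnr had its lowest and highest genotype differences. Of 10 microglia genes 7 rose, against 1.46% of all genes tested. They included Aif1, Cx3cr1, Tmem119 and Tyrobp and ran from 0.41 for Csf1r to 0.84 for Trem2. The rest, such as P2ry12, did not pass. The summed level of the 10 was 105 and 101 at 4 months against 122 and 134 at 18 months. Of 10 endothelial and mural genes none passed, with Pecam1 lowest and Ly6c1 highest in both contrasts and sums of 29.4, 26.3, 25.5 and 28.3.

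The pools also differed in markers of tissue next to the hippocampus. Of 11 thalamus and habenula genes 6 fell with age (Tcf7l2, Shox2, Slc17a6, Rora, Synpo2 and Gbx2), against 0.643% of all genes tested. The summed level of the list was 31.1 and 23.1 at 4 months against 13.7 and 10.4 at 18 months. Gbx2 was well above background only at 4 months, so it entered the test only through the group where it was high. It is counted among the 6 and is named after its values were seen. Shox2 went from 1.35 and 1.19 to 0.0347 and 0.0849. Lhx9 had the highest age difference of the list and Calb2 the lowest genotype difference. Choroid plexus genes summed to 108, 86.4, 127 and 100 and ependymal genes to 16.7, 12.4, 18.8 and 13.6. All 10 of each list were lower in hetero-KO at both ages, against 34.9% of all genes measured on every array. In the choroid plexus list Ttr rose with age (adjusted p = 0.0486) and had the highest genotype difference, Sostdc1 had the lowest and Prlr the lowest with age, and among ependymal genes Ccdc153 and Foxj1 were lowest and highest by genotype and Mia and Hdc by age. Pyramidal and hippocampal identity genes summed to 114, 112, 132 and 141, and Camk2a and Pou3f1 rose with age (adjusted p 0.0388 and 0.0497), while Nrgn had the lowest age estimate, and Bok and Wfs1 the highest and lowest genotype differences. Whether these differences in tissue makeup bear on the members was not tested.

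The authors' deposited table of the same samples gives the members another order at 18 months. Its 4-month columns are the scanner values of the same arrays on another scale, with 100% of spots within 1% after scaling. The genotype directions at 4 months are therefore the same for all 29 members by construction. At 18 months the table has the direction of the scanner values for 5 of the 10 immature neuron and progenitor genes and 12 of the 19 cell cycle genes. Its 18-month columns could not be matched to any of the 4 scanner files, and between the ages the 10 immature neuron and progenitor genes had the scanner files' direction in 5 for WT and 4 for hetero-KO, and the 19 cell cycle genes in 10 and 11. In the authors' deposited table Dcx is 0.281 and 0.332 at 4 months against 0.658 and 0.609 at 18 months, higher with age. Top2a is lower with age there as well, with 0.0528 and 0.0748 at 4 months against 0.0365 and 0.0506 at 18 months. So is Mki67 in the authors' deposited table, with 0.139 and 0.168 and then 0.124 and 0.129. Every Mcm gene but Mcm5 is also lower with age there in both genotypes, unlike in the scanner files. The median of all genes with age is itself −0.06 in WT and −0.03 in hetero-KO there, against 0.04 and 0.04 in the scanner files. Mcm7 (−0.08 and −0.03) and Mcm2 in WT (−0.07) are near that median. In the authors' deposited table Mcm6 is 2.78 and 2.32 at 4 months against 1.11 and 1.13 at 18 months.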

How the data were processed

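RNA of 4 groups was measured on 1-colour Agilent arrays, 1 per group. The authors deposited scanner files of spot intensity, made with Agilent Feature Extraction 11.5.1.1 (per the submitters' processing notes), and a table of linear ratios. Coordinates of probes are those of build mm9, per the file headers. Here log2 of the processed signal minus each array's 75th percentile was used. A probe counted as measured if 50% or more of its spots passed the scanner software's background test, and a gene was represented by its brightest probe. An additive model of genotype and age was fitted with limma 3.58.1 (R 4.3.3, eBayes with a variance trend, Benjamini-Hochberg) to the 29071 genes measured on at least 2 arrays. Only its genotype term was run on simulated data, so the age calls have no such check. Pairs of arrays have no replicate check and no test. A fold against an array where the gene was not well above background is a bound, taken against its own level there or the array's lowest passing probe, whichever was higher. The members, the 17 related lists and the tests were chosen with earlier results of these data known. Of each related list, the members with the largest and smallest mean genotype and age differences and those past the threshold were named, apart from an item not reported here. Alternatives were normexp background, quantile normalization, the mean of a gene's probes, other filters, no variance trend, a model without the other factor, and the deposited table. Promoter windows are from RefSeq (GRCm38.p6).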

Additional observations from a re-analysis of the deposited data

Results flagged for a closer look

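Lists of neighbouring cell types differed between the genotypes in opposite directions at the 2 ages, each by a median of at least 0.1 on the log2 scale. With 1 array per group this difference was not tested. Over all genes measured on every array, 44.3% were higher in hetero-KO at 4 months and 47.8% at 18 months. The subventricular zone and olfactory bulb interneuron lineage had a median hetero-KO minus WT difference of 0.23 at 4 months, with 14 of 16 genes higher, and −0.26 at 18 months, with 15 of 16 lower. Within it Sp8 had levels of 0.143 and 0.142 at 4 months against 0.309 and 0.147 at 18 months (WT, then hetero-KO), Robo2 had the highest genotype difference, and Pbx3 and Vax1 the lowest and highest with age. Neutrophil and bone marrow genes had medians of −0.35 and 0.70, with all 7 measured genes lower at 4 months and 5 of 7 higher at 18 months. S100a8 was at 0.0788 and 0.0221 and then 0.101 and 0.246, Lcn2 had the highest genotype difference, and Elane the lowest age difference. Cajal-Retzius genes had medians of 0.11 and −0.27, with 5 of 9 genes higher and 4 lower at 4 months and 7 of 9 lower at 18 months, and with Ebf3 at 0.197 and 0.171 and then 0.530 and 0.0811. In that list Reln had the highest genotype difference, Cxcl14 and Lhx5 the highest and lowest with age, and Nhlh2 fell with age (limma adjusted p = 0.0442). Calb2 is in this list and in those of thalamus and intermediate progenitors.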

How the results depend on the processing

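Of 40 recomputed medians of the members 37 kept their direction, and of 54 recomputed counts 32 stayed within 1.5 times. The 4-month genotype medians of the deposited table are among the 40 and kept theirs by construction. No paired analysis was possible because the groups share only the replicate number 1. In the deposited table the median of the immature neuron and progenitor genes was 0.10 for hetero-KO minus WT at 18 months and 0.037 for 18 minus 4 months in hetero-KO, higher where the scanner files gave lower. With normexp the cell cycle median for hetero-KO minus WT at 18 months was −0.014 (8 of 19 higher), against 0.024 (11 of 19). Counts of all genes past the limma threshold moved most. For age they were 1450 with normexp (1147 higher, 303 lower), 167 with quantile normalization (51 higher, 116 lower), 14 with the mean of probes, 121 without genotype in the model, and 0 with no filter on dim probes or no variance trend, against 612 (425 higher, 187 lower). At an unadjusted p under 0.05, no filter gave 5039 higher and 2074 lower and no trend 2775 and 1743. For genotype they were 14, 10 with genes measured on all 4 arrays, 1 with the mean of probes, 1 without age, and 0 with no filter or no trend, against 3. The immature neuron and progenitor genes had 2 calls for age with normexp (Dcx and Marcksl1). The cell cycle genes had 1 with quantile normalization (Top2a) and 0 with the mean of probes, no filter, no trend or no genotype term. With normexp the genes at least 2-fold apart were 97 and 66 between genotypes at 4 and 18 months and 133 and 208 between ages in WT and hetero-KO, against 376, 314, 451 and 606. The cause was not tested. Of 116 differences of single members, 107 kept their sign with normexp, 111 with quantile normalization and 110 with the mean of probes. Signal over background limits the dim members, such as Top2a, Cdk1, Aurkb and Kif11.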

Other observations

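Melk, a kinase of dividing progenitors that belongs to the G2 phase and mitosis list and is named after its values were seen, read 0.0115 (WT) and 0.0928 (hetero-KO) at 4 months. On the older arrays it was not well above background.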
